A study of Mus musculus with 8 samples.

Results

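Lyz1, Lyz2, Chil1, Cxcl15 and Hc are 5 genes for secreted defence proteins, chosen by name and read from the 32285 genes and 116068 chromatin peaks of a mouse alveolarsphere dataset. All 5 were present as rows of the RNA matrix. Alveolarspheres are small cultures grown, here without serum or feeder cells, from type II alveolar epithelial (ATII) cells of young and old mice. They were infected on day 9 with AAV9 (an adeno-associated virus used to deliver genes) carrying Sox9 together with Cre recombinase (Sox9Cre) or Cre alone, and then spent 4 days in a medium that promotes differentiation to flat type I (ATI) cells. Live cells with the tdTomato reporter were sorted, and each nucleus gave both an RNA and an open-chromatin profile. There are 8 labelled samples, 2 each for Sox9Cre RNA, Cre RNA, Sox9Cre ATAC and Cre ATAC, all described as ATII cells from lung. The sources used here do not give the promoter of the virus, the reporter strain or the number of mice.

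The counts came as 1 RNA and 1 ATAC matrix in which barcodes carry 4 prefixes, and nothing in the labels links a prefix to a sample, a virus or an age. The prefixes are called libraries A to D, no Sox9Cre against Cre comparison was made, and the matrix was treated as 1 sample with no replicates and no test. After filtering, 7199 of 7224 nuclei were kept, of which 1266, 766, 3236 and 1931 belong to A, B, C and D, with median RNA counts of 9802 to 11733 UMIs (unique molecular identifiers, which count captured molecules) per nucleus. Of 7204 distinct barcodes, 20 occurred in 2 libraries. The 2399 nuclei with the most Sftpc RNA per 10000 UMIs, the surfactant gene that marks ATII cells, are called Sftpc-rich (434, 253, 1078 and 634 in A to D) and are set against the 4800 other nuclei. The lowest Sftpc-rich nucleus had 445.64 Sftpc UMIs per 10000 and the highest other nucleus 445.19. Median depth was 12875 UMIs in Sftpc-rich and 10172 UMIs in other nuclei. Of 20 ATII markers, Sftpc included, 17 were at least 2-fold higher in Sftpc-rich nuclei. Levels are given as a gene's share of all UMIs in a class of nuclei, per 10000, and all intervals are exact 95% intervals that cover counting error only, not differences between nuclei, cultures or mice.

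Lysozymes cut the cell wall of bacteria. The mouse carries a pair of neighbouring lysozyme genes: Lyz2 is the form of macrophages, neutrophils and ATII cells, which store it with surfactant, while Lyz1 is best known from the Paneth cells of the gut. Chil1 encodes a chitinase-like protein that binds chitin without cutting it and is made by macrophages and lung epithelium. Cxcl15, also called lungkine, is a neutrophil-attracting chemokine made mainly in lung epithelium. Hc encodes complement C5, from which the inflammatory peptide C5a and the first part of the membrane attack complex are cut.

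The promoter sequences of the lysozyme genes are shown because these neighbours had their highest levels in different clusters of nuclei although the bases next to their starts are the same. The sequences are the 250 bases before each start in RefSeq (build GRCm38.p6), on the strand of the gene. Capitals mark the run that Lyz1 and Lyz2 share without a difference up to the start.
Lyz1: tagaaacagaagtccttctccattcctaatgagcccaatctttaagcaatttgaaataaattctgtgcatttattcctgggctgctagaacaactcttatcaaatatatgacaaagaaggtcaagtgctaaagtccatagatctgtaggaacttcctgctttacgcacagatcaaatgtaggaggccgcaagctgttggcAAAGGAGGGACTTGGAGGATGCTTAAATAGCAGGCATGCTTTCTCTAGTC
Lyz2: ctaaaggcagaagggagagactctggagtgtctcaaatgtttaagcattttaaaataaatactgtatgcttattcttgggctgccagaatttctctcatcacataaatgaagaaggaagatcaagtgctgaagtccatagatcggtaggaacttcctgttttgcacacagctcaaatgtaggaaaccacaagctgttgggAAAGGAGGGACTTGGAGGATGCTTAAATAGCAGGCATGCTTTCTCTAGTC
Lyz1 lies at chr10:117287795-117292868 and Lyz2 at chr10:117277541-117282272, both on the minus strand, with 10596 bases between their starts. Aligned end to end, the 2 windows were identical at 200 of 252 positions (79.4%), whereas the other 9 pairs among the 5 genes reached 42.6% to 49.1%. Both hold the letters CAAGTG (read on both strands), a sequence bound by the lung factor NKX2-1, starting at base -129. The same letters occurred in 11.6% of 27025 RefSeq promoters of that length and in none of the Chil1, Cxcl15 and Hc windows. A match is a description of letters only.

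The windows of the other 3 genes are shown because, unlike the lysozyme windows, they lie under deposited chromatin peaks described further on. Capitals here mark TATAAA, the letters of the TATA box, or TTNNGNAA, a loose form of the C/EBP motif, each searched on both strands.
Chil1: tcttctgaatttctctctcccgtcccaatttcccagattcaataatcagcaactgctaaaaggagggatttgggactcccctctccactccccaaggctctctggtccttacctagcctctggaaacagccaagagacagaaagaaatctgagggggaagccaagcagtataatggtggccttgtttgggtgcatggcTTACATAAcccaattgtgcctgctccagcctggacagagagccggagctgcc
Cxcl15: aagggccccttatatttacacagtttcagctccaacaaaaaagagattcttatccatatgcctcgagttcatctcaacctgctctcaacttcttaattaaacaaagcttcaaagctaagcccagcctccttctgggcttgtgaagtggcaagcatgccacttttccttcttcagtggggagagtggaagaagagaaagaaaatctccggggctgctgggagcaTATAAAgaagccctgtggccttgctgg
Hc: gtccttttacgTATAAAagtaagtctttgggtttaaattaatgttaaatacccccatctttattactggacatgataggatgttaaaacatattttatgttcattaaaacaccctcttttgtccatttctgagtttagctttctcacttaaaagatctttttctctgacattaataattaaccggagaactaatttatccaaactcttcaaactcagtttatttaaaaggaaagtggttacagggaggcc
Chil1 lies at chr1:134182156-134190031 and Cxcl15 at chr5:90794534-90803067, both on the plus strand, and Hc at chr2:34983329-35068506 on the minus strand. The Hc window, chr2:35061413-35061662, ends at a start inside the listed span of the gene. The letters TATAAA began at base -27 of Cxcl15 and at base -239 of Hc, and they occurred in 13% of the 27025 promoters. The C/EBP letters occurred once in Chil1, starting at base -52, once in each lysozyme window, and in 36.9% of all promoters.

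Lyz2, Chil1, Cxcl15 and Hc were each far higher in Sftpc-rich than in other nuclei, in all 4 libraries, while Lyz1 went the other way over all nuclei. Thus 4 of the 5 genes were at least 2-fold higher, against 3.11% of 16505 genes tested, and 1 was at least 2-fold lower, against 14.0%. Within libraries A to D the same 4 genes passed 2-fold, where 3.45%, 3.99%, 3.06% and 3.40% of genes did, and Lyz1 was at least 2-fold lower in C and D, where 11.8% and 12.0% of genes were. By size of the fold Chil1 ranked 6th, Lyz2 7th, Cxcl15 15th and Hc 22nd of the 16505 genes, and Lyz1 ranked 557th from the lowest. The median log2 fold of all genes tested was -0.20. Sftpc itself, which made the classes, was 12.3-fold higher. The libraries cannot be read as conditions, so agreement between them shows only that no single prefix carried the difference.

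**Figure D1:**
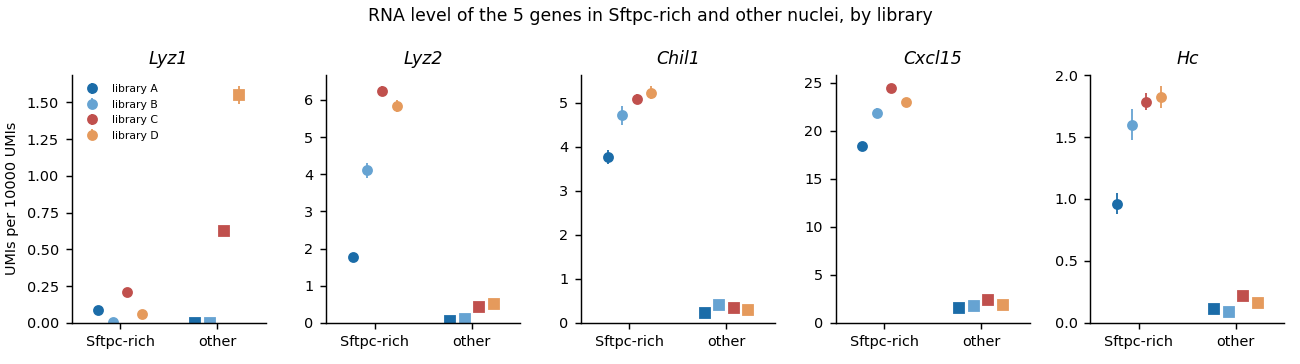
RNA level (UMIs per 10000 UMIs, linear axes from 0) of each gene in Sftpc-rich nuclei (circles, left) and other nuclei (squares, right) of libraries A to D, with exact 95% Poisson intervals. Lyz2, Chil1, Cxcl15 and Hc lie higher in the Sftpc-rich nuclei of every library, and Lyz1 lies highest in the other nuclei of libraries C and D (0.622 and 1.55).

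Lyz2 had 1.77, 4.10, 6.24 and 5.84 UMIs per 10000 in Sftpc-rich nuclei of libraries A to D, against 0.0603, 0.0945, 0.426 and 0.509 in other nuclei. Every Sftpc-rich value lay above every other value, and library A was the lowest in both classes. Over all nuclei the level was 5.17 in Sftpc-rich against 0.359 in other nuclei, a fold of 14.4 (13.8 to 15.1), and within libraries the fold was 29.4, 43.4, 14.7 and 11.5. A Lyz2 UMI was seen in 27.8% of Sftpc-rich and 9.75% of other nuclei, and after each nucleus was thinned to 3000 UMIs (2346 Sftpc-rich and 4597 other nuclei were deep enough) in 17.3% and 3.98%. ATI-like nuclei (cluster 2, below; median 9755.5 UMIs), a type not expected to make lysozyme, had a UMI in 8.22% before and 2.92% after thinning. Of these ATI-like nuclei 14.4% were themselves Sftpc-rich, and the part of free RNA in the droplets in the share of other nuclei was not tested. By level other nuclei had more, 0.359 against 0.0920 in ATI-like nuclei, with up to 166 Lyz2 UMIs in 1 nucleus.

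Lyz1 had 0.0845, 0.0026, 0.210 and 0.0616 UMIs per 10000 in Sftpc-rich nuclei of libraries A to D, against 0, 0.0017, 0.622 and 1.55 in other nuclei. Libraries A and B held almost none of it, with 45 UMIs in Sftpc-rich and 0 in other nuclei of A, and 1 UMI in each class of B. The 0 in library A allows a level of up to 0.0036 (3 counts), and from 45 against 0 UMIs Lyz1 was at least 18.2-fold higher in Sftpc-rich nuclei there (exact lower limit), but 33 and 11 of the 45 UMIs came from 2 nuclei. In libraries C and D the fold was 0.338 (0.298 to 0.381) and 0.0398 (0.0300 to 0.0519). Over all nuclei the level was 0.126 in Sftpc-rich against 0.729 in other nuclei, a fold of 0.173 (0.156 to 0.191), which was 0.0685 without library C and 0.384 without library D. A single cluster of 166 airway secretory-like nuclei carried this direction: without it the fold was 0.944. Against only those other nuclei that lacked airway and immune marker UMIs the fold was 3.32. That filter was applied to the other nuclei only. It takes out nuclei rich in airway genes, of which Bpifa1 and Cbr2 were most like Lyz1 (r 0.89 and 0.88), so a higher fold was built in. In the other direction, the fold was 0.0364 without cluster 8 (below). A Lyz1 UMI was seen in 3.25% of Sftpc-rich and 4.13% of other nuclei, after thinning in 1.15% and 2.33%, against 1.30% and 0.417% of ATI-like nuclei before and after thinning.

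Because the 2 lysozyme transcripts are close copies, the counting could assign reads of one to the other, and low values of either are uncertain. In library B, Sftpc-rich nuclei held 1572 Lyz2 UMIs beside 1 Lyz1 UMI. The airway secretory-like cluster (cluster 11, below) held 510 Lyz2 UMIs beside 3306 Lyz1 UMIs. Assignment of reads to the wrong neighbour was not tested. Of 322 nuclei with at least 10 lysozyme UMIs in all, 46 had at least 90% Lyz1 and 257 had at most 10% Lyz1, which leaves few with a mixture. Among those nuclei, 1 of 237 Sftpc-rich and 45 of 85 other nuclei had at least 90% Lyz1. Nuclei with many lysozyme UMIs thus mostly held 1 of the neighbours. Detection of the 2 genes, at any count, went together over all Sftpc-rich nuclei but not in every library. Thinned to 3000 UMIs, Lyz2 was seen in 13 of 27 nuclei with Lyz1 (48.1%, 28.7 to 68.1) and in 16.9% of those without (15.4 to 18.5). Library C had Lyz2 in 10 of 15 nuclei with Lyz1, against 19.9% of those without. In library D the order was reversed, with 1 of 10 against 17.0%, and A and B had 1 of 1 each.

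Chil1 had 3.77, 4.72, 5.08 and 5.24 UMIs per 10000 in Sftpc-rich nuclei of libraries A to D, against 0.227, 0.401, 0.337 and 0.302 in other nuclei. The 4 Sftpc-rich values lay close together and none overlapped the other nuclei. Over all nuclei the level was 4.87 against 0.317, a fold of 15.4 (14.6 to 16.1), with 11.7 to 17.4 within libraries. A Chil1 UMI was seen in 39.5% of Sftpc-rich and 9.98% of other nuclei, after thinning in 26.4% and 4.37%, against 6.81% and 3.13% of ATI-like nuclei before and after thinning.

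Cxcl15 had 18.4, 21.9, 24.4 and 23.0 UMIs per 10000 in Sftpc-rich nuclei of libraries A to D, against 1.54, 1.70, 2.41 and 1.86 in other nuclei. The fold was nearly the same in every library, 12.0, 12.9, 10.1 and 12.4, and 11.2 (10.9 to 11.4) over all nuclei. A Cxcl15 UMI was seen in 93.1% of Sftpc-rich and 52.9% of other nuclei, after thinning in 81.5% and 28.3%. ATI-like nuclei had one in 57.6% and, after thinning, in 30%, so the share in other nuclei was no higher than in these. Of the ATI-like nuclei 14.4% were Sftpc-rich and the rest are themselves among the other nuclei, so their share cannot set a background. No expression is read from the share in other nuclei, and the part of free RNA in it was not tested. Per 1000 Sftpc UMIs there were 23.6 Cxcl15 UMIs in Sftpc-rich and 25.9 in other nuclei, nearly 1 ratio, but 8.51 in ATI-like nuclei, and single other nuclei had up to 151 Cxcl15 UMIs.

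Hc had 0.959, 1.60, 1.79 and 1.82 UMIs per 10000 in Sftpc-rich nuclei of libraries A to D, against 0.115, 0.0829, 0.215 and 0.161 in other nuclei. Library A was the lowest Sftpc-rich value, and no value of the classes overlapped. Over all nuclei the level was 1.64 against 0.170, a fold of 9.68 (9.03 to 10.4), with 8.37, 19.3, 8.32 and 11.3 within libraries. A Hc UMI was seen in 43.1% of Sftpc-rich and 7.29% of other nuclei, after thinning in 22.5% and 3.09%, against 6.01% and 1.88% of ATI-like nuclei.

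All nuclei were ordered by Sftpc and cut into 10 equal groups, 1 the lowest and 10 the highest. Over all libraries, the 4 higher genes were all higher from group 7 on and then parted. In groups 4, 5 and 6 Cxcl15 had 1.39, 2.07 and 2.77, Chil1 0.131, 0.403 and 0.494, and Hc 0.141, 0.164 and 0.226, while Lyz2 stayed at 0.268, 0.283 and 0.240. Cxcl15 went on climbing, with levels of 6.36, 16.0, 26.0 and 30.8 in groups 7 to 10. Lyz2 had 1.41, 3.87, 6.42 and 6.38, Chil1 1.30, 4.03, 5.95 and 5.54, and Hc 0.853, 1.52, 1.84 and 1.71, so over all libraries these 3 did not increase further in group 10. Single libraries differed in this: Lyz2 reached 9.89 in group 10 of library C, its highest value there, and Chil1 was also highest in group 10 of A and D. In library B, Lyz2 and Chil1 were not yet higher in group 7 (0.0620 and 0.547) than in group 6 (0.171 and 0.582). Over all libraries, Lyz1 was highest in groups 1 to 3 (1.75, 1.11 and 1.12) and was 0.0175 in group 10. Taking only the top 1 in 6 nuclei as Sftpc-rich left many Sftpc-high nuclei in the comparison class, and the folds were then 6.10 for Lyz2, 4.77 for Chil1, 5.46 for Cxcl15 and 3.43 for Hc.

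**Figure D2:**
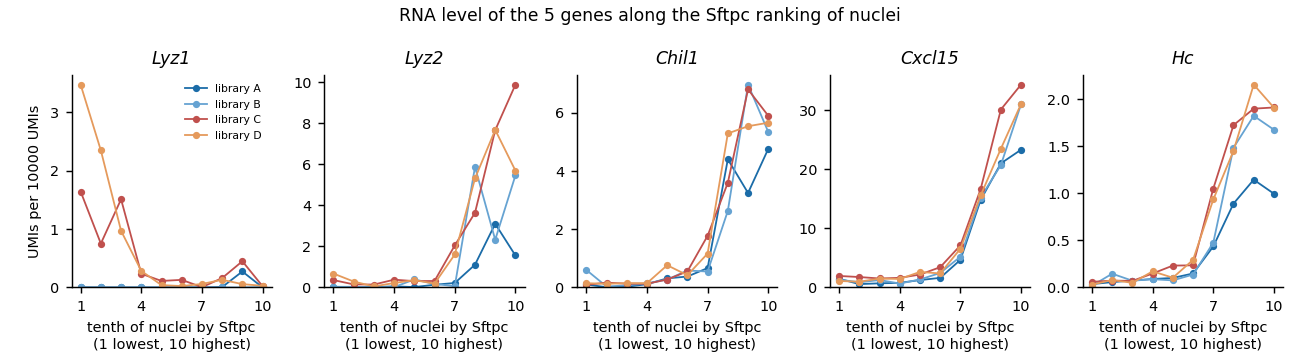
RNA level (UMIs per 10000 UMIs) of each gene in 10 equal groups of nuclei ordered from the lowest (1) to the highest (10) Sftpc level, by library (colours; linear axes from 0). Cxcl15 is highest in the top groups of every library, while Lyz1 is highest in the low groups of libraries C and D (1.64 and 3.47 in group 1).

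Among the Sftpc-rich nuclei themselves the genes differed in how many nuclei held them. For Cxcl15, 296 nuclei (12.3%) held 50% of the UMIs, and the median nucleus had 15 UMIs. For Hc the number was 141 nuclei (5.88%), for Chil1 93 (3.88%) and for Lyz2 36 (1.5%), and the median nucleus had 0 UMIs of each of these 3. The 10% of nuclei with the most UMIs of a gene held 44.0% of Cxcl15, 65.1% of Hc, 79.0% of Chil1 and 94.3% of Lyz2. The highest nucleus had 594 Lyz2 UMIs, and in library B 2 nuclei with 568 and 333 UMIs made up most of the 1572. Of the 421 Lyz1 UMIs in Sftpc-rich nuclei, 164 and 69 came from 2 nuclei of library C. In nuclei thinned to 3000 UMIs the variance over the mean was 26.8 for Lyz2, 11.6 for Lyz1, 10.9 for Cxcl15, 10.5 for Chil1 and 2.45 for Hc, where counting alone gives a value near 1. The Poisson intervals of the Lyz2, Lyz1, Cxcl15, Chil1 and Hc levels therefore understate how much these levels vary with the nuclei sampled. The intervals of their folds, which also cover counting error only, are too narrow in the same way. By this ratio the understatement was largest for Lyz2 and smallest for Hc.

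**Figure D3:**
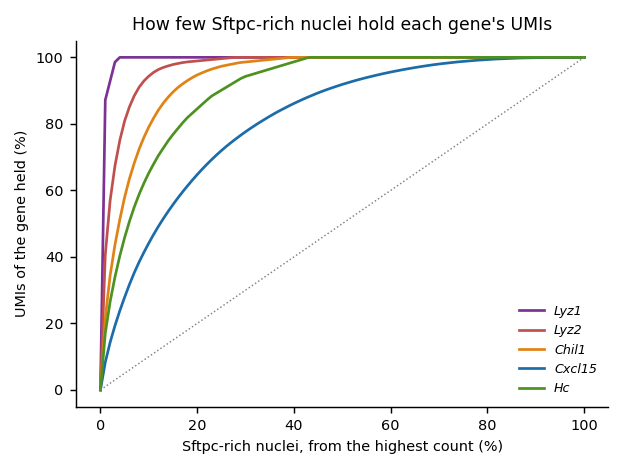
Percent of each gene's UMIs in Sftpc-rich nuclei (y axis) held by a percent of those nuclei taken from the highest count down (x axis); the dotted diagonal is equal holding. The top 10% of nuclei held 94.3% of Lyz2 and 44.0% of Cxcl15.

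Nuclei were clustered without these 5 genes, Sftpc or Sox9, which gave 13 clusters numbered by size, and a cluster is called X-like only from listed markers. The highest levels of Lyz2, Chil1, Cxcl15 and Hc all fell in cluster 8, 414 ATII-like nuclei (54, 34, 207 and 119 in libraries A to D), of which 95.2% were Sftpc-rich. This 5.75% of nuclei held 66.6% of all Lyz2, 64.0% of Chil1, 38.1% of Cxcl15 and 35.9% of Hc UMIs. Its leading genes by fold were Lrg1, Acoxl, Hdc, St6galnac3, Fabp5 and Lcn2. Its Sftpc level was 974, against 894 in cluster 1, the larger ATII-like cluster of 1275 nuclei, so the clusters differed little in the gene that defines the class. Cluster 8 was singled out for its Lyz2 level, so its own values are a description.

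In cluster 8 the levels were 20.5 for Lyz2, 18.5 for Chil1, 53.2 for Cxcl15 and 3.69 for Hc, against 2.29, 2.74, 20.7 and 1.67 in cluster 1. Among Sftpc-rich nuclei alone, the 394 in cluster 8 had 12.4-fold more Lyz2 than the other 2005 (12.0 to 12.8), 10.2-fold more Chil1 (9.84 to 10.5), 3.44-fold more Cxcl15 (3.39 to 3.49) and 2.98-fold more Hc (2.83 to 3.15). In that comparison 3.20% of 13537 genes were at least 2-fold higher. Within libraries A to D the fold was 11.2, 38.8, 9.82 and 12.9 for Lyz2 and 17.7, 15.5, 8.52 and 9.02 for Chil1. Without cluster 8, Sftpc-rich nuclei still had 5.20-fold more Lyz2 and 6.95-fold more Chil1 than other nuclei, and 8.12-fold more Cxcl15 and 8.30-fold more Hc. Lyz1 too was higher in the Sftpc-rich nuclei of cluster 8 than in the rest, 0.580 against 0.0266 (21.8-fold), but 164 and 69 of those UMIs were in 2 nuclei, and the fold was 35.7 in library C and 1.70 in D. Even in cluster 8, Lyz2 was unevenly held: a Lyz2 UMI was seen in 58.2% of its nuclei, and a Cxcl15 UMI in 99.8%.

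Library A had the lowest Lyz2 level inside cluster 8, but the level of library B rested on few nuclei. The Lyz2 level there was 8.32, 23.3, 21.8 and 22.4 in libraries A to D, while Chil1 was 20.3, 22.5, 17.3 and 18.4 and Hc 2.98, 4.12, 3.86 and 3.53. The share of cluster 8 nuclei with a Lyz2 UMI was 57.4% in library A and 56.3% to 64.7% in the others, so the difference lay in UMIs per positive nucleus, of which library A had 31. The most in 1 nucleus was 208 Lyz2 UMIs in A and 486 to 594 in the others. In library B, 568 and 333 of the 1378 Lyz2 UMIs of cluster 8 came from 2 of its 34 nuclei. Its level of 23.3 is thus not that of a typical nucleus. Whether the lower level in library A reflects the culture, the mouse or the few nuclei was not tested.

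Beyond the ATII-like clusters, cluster 6 (612 nuclei, 381 in C and 211 in D, led by Col27a1 and with Sox9 among its leading genes; unnamed) had 1.59 Lyz2, 0.970 Chil1 and 4.69 Cxcl15 UMIs per 10000, although 12.7% of it was Sftpc-rich. Cluster 7 (unnamed, 70.2% Sftpc-rich) had 9.51 Cxcl15 and 0.830 Hc but 0.664 Lyz2. Cluster 9 (unnamed, 68.2% Sftpc-rich, Sftpc level 853, with the antigen-presentation genes H2-Ab1 and H2-Aa among its leading genes) had 0.127 Lyz2, 0.168 Chil1, 3.77 Cxcl15 and 0.362 Hc. High Sftpc thus did not by itself go with high defence gene levels: clusters 9 and 1 had like Sftpc levels but Lyz2 levels of 0.127 and 2.29. In the ATI-like cluster 2 the levels were 0.0130 for Lyz1, 0.0920 for Lyz2, 0.111 for Chil1, 1.83 for Cxcl15 and 0.0948 for Hc.

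**Figure D4:**
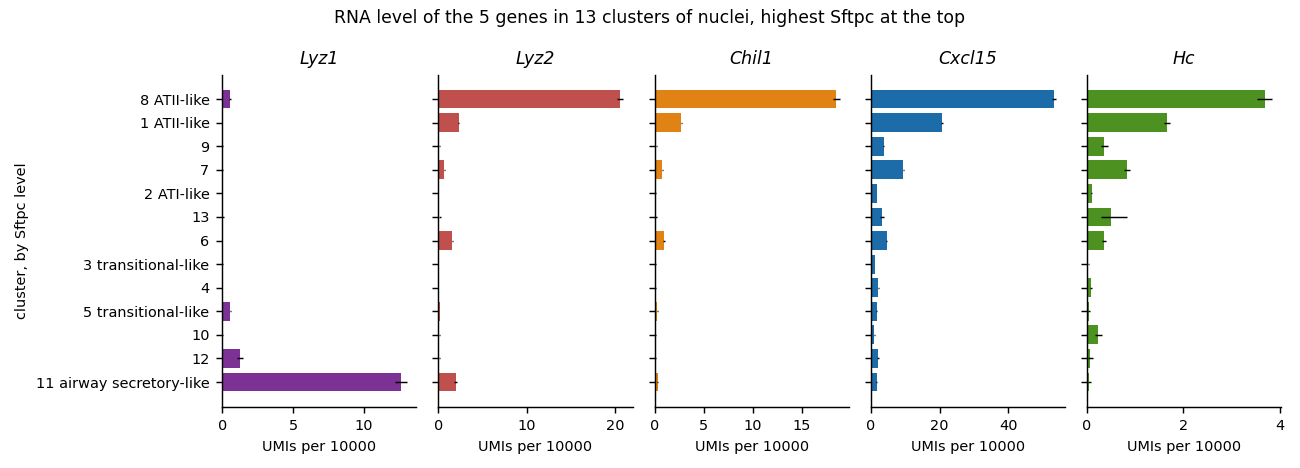
RNA level (UMIs per 10000 UMIs, linear axes from 0) of each gene in 13 clusters of nuclei ordered by Sftpc level, highest at the top, with exact 95% Poisson intervals. Lyz2, Chil1, Cxcl15 and Hc are highest in cluster 8 and Lyz1 in cluster 11 (12.6).

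Lyz1 belonged to cluster 11, 166 airway secretory-like nuclei found only in libraries C (73) and D (93), led by the secretory and mucus genes Scgb3a2, Muc5b, Bpifb1 and Bpifa1. They go against the label of ATII cells, with a Sftpc level of 22.1. The cluster held 74.7% of all Lyz1 UMIs at a level of 12.6, nearly the same in C and D (12.64 and 12.58), and 50.0% of its nuclei had a Lyz1 UMI. In it Lyz2 was 1.94, Chil1 0.309, Cxcl15 1.72 and Hc 0.0419. In that cluster 12.8% of 15790 genes were at least 2-fold higher than in the other nuclei of C and D, among them 14 of 14 airway secretory markers and also 12 of 12 ciliated cell markers, so it is not a pure class. Of the 82 nuclei with at least 5 Lyz1 UMIs, 54 were in cluster 11, 9 in the transitional-like cluster 5, 8 in cluster 8 and the rest in clusters 1, 3, 6 and 12. Library A held 2 of the 82, B 0, C 37 and D 43. The absence of cluster 11 from libraries A and B cannot be told apart from their other differences, and no label ties either pair of libraries to a virus or an age.

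The genes also met in the same nuclei. Among Sftpc-rich nuclei thinned to 3000 UMIs, Chil1 was seen in 65.0% of nuclei with Lyz2 (60.2 to 69.7) and 18.3% of those without it (16.6 to 20.1). Lyz2 was seen in 42.6% of nuclei with Chil1 and 8.22% of those without, and this held in each library, with 38.0%, 47.5%, 44.1% and 40.4% against 5.57%, 2.73%, 10.7% and 8.37%. Hc was seen in 45.1% of nuclei with Lyz2 and 17.8% without, and in 46.0% with Chil1 and 14.1% without. Cxcl15 was near its ceiling, 96.6% with Lyz2 and 78.3% without.

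As a description over 40 sums of cluster and library with at least 30 nuclei, the genes whose log level was most like each gene were found among 7138 genes. The sums share libraries and depth, and the correlations carry no test. For Lyz2 they were Chil1 (Pearson r 0.93), Lrg1 (0.91), a secreted glycoprotein, and Lcn2 (0.91), the iron-binding defence protein lipocalin 2. For Chil1 they were Lyz2, Cxcl15 (0.93) and Fads1 (0.92), a fatty acid desaturase. Cxcl15 was most like Fasn (0.96) and Scd1 (0.95), enzymes of fatty acid synthesis, with Tmem42 (0.96) between them, and Hc was most like Lamp3 (0.96), a lamellar body protein, Tspan11 (0.96) and Ggcx (0.94). Lyz1 was most like Bpifa1 (0.89), Cbr2 (0.88) and Cxcl17 (0.85), all known from airway epithelium. Between the lysozymes r was 0.35.

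Most family members of the 5 genes were not at least 2-fold higher in Sftpc-rich nuclei. Of all genes tested, 3.11% were at least 2-fold higher and 14.0% lower, and the family counts include the 5 genes themselves. Of 3 lysozyme family genes with at least 30 UMIs, Lyz2 was higher and Lyz1 and Lyzl4 (12 against 43 UMIs) were at least 2-fold lower. Of 7 chitinase family genes, Chil1 and Chia1, an acidic chitinase (3.70-fold, 90 against 40 UMIs), were higher, and Chil5 and Chit1 were lower. Chit1, the macrophage chitinase, had 5 against 59 UMIs. Of 12 CXC chemokine and receptor genes, Cxcl15 was the 1 higher and 8 were lower, with Cxcl16 at 0.525 against 1.38, Cxcl17 at 0.156 against 0.559, and the neutrophil chemokine Cxcl5 at 0.0350 against 0.109. Of 18 complement genes, Hc, C6 (5.71-fold), another part of the membrane attack complex, and Cfi (2.02-fold), which inactivates C3b and C4b, were higher and 6 were lower. Clusterin (Clu), which blocks that complex, was 15.6 against 48.5, and C3, the central component, was 0.260 against 0.191 and did not pass 2-fold. The median log2 folds were -1.12 for the lysozyme, -0.32 for the chitinase, -1.28 for the CXC and -0.15 for the complement list, beside -0.20 for all genes tested.

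Of 22 further secreted defence genes tested, 7 were at least 2-fold higher and 14 lower in Sftpc-rich nuclei (median log2 fold -3.29), against 3.11% and 14.0% of all genes tested. The higher ones included the surfactant collectins Sftpa1 (21.0 against 1.46) and Sftpd (16.4 against 5.08), Lcn2 (3.67 against 0.806) and the alarmin Il33 (0.579 against 0.0814). The lower ones were mostly airway genes, among them Scgb3a1 (0.620 against 11.9), Bpifa1 (0.293 against 5.30) and the bactericidal lectin Reg3g (0.0760 against 2.56). Within Sftpc-rich nuclei, cluster 8 had more Lcn2 than the rest (13.9 against 1.42, 9.81-fold), more C3 (0.696 against 0.165, 4.22-fold) and more Il33 (1.32 against 0.417, 3.16-fold). In that comparison 4 of 16 secreted defence and 4 of 11 complement genes tested were at least 2-fold higher. So were 4 of 7 CXC, 2 of 5 chitinase and 2 of 2 lysozyme genes, against 3.20% of all 13537 genes tested. These counts include the 4 genes of interest and Lyz1, and Lyz2 was used to pick the cluster. Another 4 of the secreted defence genes and 1 complement gene were at least 2-fold lower.

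Markers of cells that make Lyz2 and Chil1 elsewhere were low. The summed level of 20 macrophage markers was 0.80 in Sftpc-rich and 1.15 in other nuclei (0.735 to 0.877 and 0.809 to 1.32 by library), and of 9 tested 1 was at least 2-fold higher and 5 lower. The defining genes were at or near 0 in Sftpc-rich nuclei, with 6 Ptprc, 3 Spi1, 4 Marco, 0 Tyrobp, 0 C1qb and 0 Laptm5 UMIs beside 17294 of Lyz2. The summed level of 15 neutrophil markers was 0.0147 against 0.334 (0.0026 to 0.0191 and 0.0097 to 0.750 by library), with S100a8 at 0 UMIs in both classes. The neutrophil list also holds Ltf, which airway cells make and which had 12 against 1699 UMIs. Of 14 airway secretory markers 0 were higher and 14 lower, summing to 2.37 against 33.6, and of 12 ciliated markers 11 were lower. Of 18 ATI and 17 transitional markers 10 and 13 were lower. Of 4 endothelial, 4 mesenchymal and 2 gut markers tested, 2, 3 and 1 were lower and none was higher.

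Nuclei with at least 5 Sox9 UMIs occurred mostly in libraries C (197) and D (114), and 15.7% and 14.0% of them were Sftpc-rich, against 35.2% and 35.1% of nuclei with no Sox9 UMI. In C they had 1.69 Lyz2 and 0.852 Chil1 UMIs per 10000, against 2.76 and 2.27 without Sox9, and in D 2.46 and 0.936, against 2.65 and 2.50. Cxcl15 was 6.31 against 10.98 in C and 8.56 against 9.96 in D, and Hc 0.625 against 0.763 and 0.823 against 0.743. Lyz1 was 0.0234 against 0.652 and 0.0113 against 1.04. The nuclei with at least 5 Sox9 UMIs were also deeper, with a median of 14552 against 10387 UMIs in C and 13728 against 11200 in D. These are RNA counts within a library and not the study's Sox9Cre and Cre groups.

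Chromatin followed the RNA only in part. Accessibility is given as counts in peaks over a gene and 2000 bp on either side, per 10000 counts in peaks. No deposited peak lay over Lyz1 and 1 lay over Lyz2, past its end, with 0.0864 in Sftpc-rich against 0.0952 in other nuclei, a fold of 0.908 (0.774 to 1.06). Chil1 was 1.31-fold (1.18 to 1.46) and Cxcl15 1.29-fold (1.19 to 1.40) higher, which makes 2 of 4 measured genes at least 25% higher, against 5.50% of 19619 gene windows. Hc was 1.247-fold higher (0.482 against 0.387; 1.16 to 1.34), just under that threshold. The median over all windows was 1.02.

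**Figure D5:**
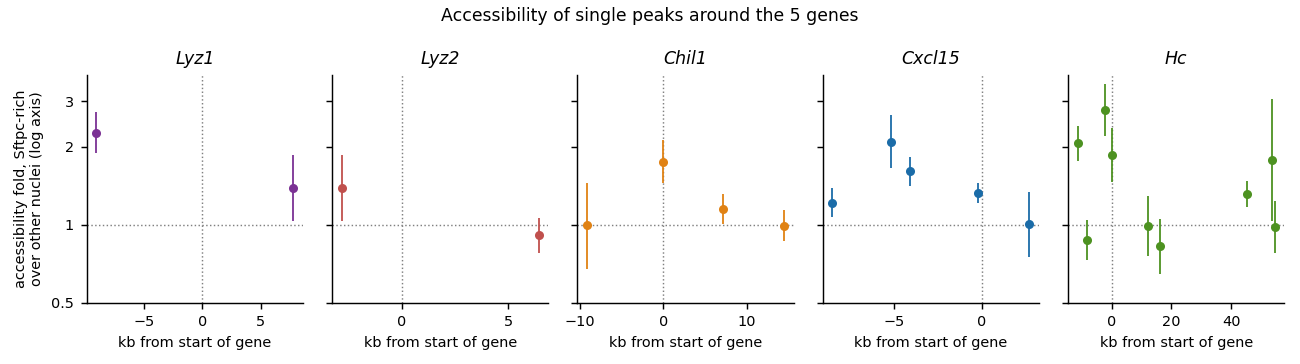
Fold of accessibility in Sftpc-rich over other nuclei (log axis, exact 95% intervals) for single peaks over or within 10 kb of each gene, against distance from the gene's start (negative values lie upstream). The peaks nearest the starts of Chil1, Cxcl15 and Hc lie above 1, and no peak lies at either lysozyme start.

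Single peaks showed more than the sums. Among all 108424 peaks tested 16.3% were at least 25% and 1.99% at least 2-fold higher in Sftpc-rich nuclei. The peak over the Chil1 start (chr1:134181692-134182647) was 1.75-fold higher (1.45 to 2.11), with 216 against 235 counts, while the other peak over the gene was 1.15-fold higher. By library its fold was 2.52, 2.9, 1.56 and 1.68. Within Sftpc-rich nuclei it was 2.61-fold more open in nuclei with a Chil1 UMI than in those without (1.98 to 3.45, thinned RNA). It was not alone in this: the sparse peak at -9110 bp was 2.24-fold more open (1.17 to 4.24, 19 against 25 counts). That peak did not differ between Sftpc-rich and other nuclei (0.997-fold). The start peak was also open in cluster 6 (0.119 counts per 10000), near cluster 8 (0.137) and above cluster 1 (0.0843).

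At Cxcl15 the peak at the start (chr5:90793864-90794817) was open in 26.0% of Sftpc-rich and 20.9% of other nuclei and differed little, 1.32-fold (1.21 to 1.44), beside the 11.2-fold difference in RNA. The peaks centred at -5191 and -4119 bp from the start differed more, 2.09-fold (1.66 to 2.64) and 1.61-fold (1.41 to 1.82). In nuclei with a Cxcl15 UMI the start peak was 1.23-fold higher than in those without (1.03 to 1.49).

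At Hc the peak at the start (chr2:35060790-35061731) was 1.86-fold (1.47 to 2.37), the one at -2210 bp 2.77-fold (2.20 to 3.49) and the one at -11292 bp 2.06-fold (1.76 to 2.41) higher, while the one at -8066 bp was 0.874-fold. Further into the gene the peaks went both ways, with 0.991-fold at 12291 bp, 0.827-fold at 16275 bp, 1.32-fold (1.17 to 1.48) at 45304 bp, 1.78-fold (1.04 to 3.05; 29 against 31 counts) at 53785 bp and 0.981-fold at 54569 bp. The peak at -2210 bp, inside the listed gene span, had a fold of 1.72, 4.91, 2.84 and 2.82 in libraries A to D. Its accessibility was 0.156 in cluster 8 and 0.0656 in cluster 1. It was 0.0869 (17 counts) in cluster 11, which held only 11 Hc UMIs, and the peak at -8066 bp was highest in cluster 11 (0.271). In Sftpc-rich nuclei with a Hc UMI the peaks at the start, -2210 and -11292 bp were 1.97-, 2.17- and 1.87-fold more open than in those without. They were not alone in this, since the peak at 12291 bp was 2.13-fold (1.34 to 3.34) and the one at -8066 bp 1.66-fold (1.19 to 2.28) more open.

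Around the lysozymes, the peak between the genes, at -2805 bp from the Lyz2 start, was sparse (83 against 114 counts) and 1.39-fold higher (1.03 to 1.86). The peak at -9087 bp from the Lyz1 start (chr10:117301499-117302411) was 2.27-fold higher in Sftpc-rich nuclei (1.90 to 2.71), with 2.9, 26.8, 2.03 and 2.16 by library, where library B had 12 against 1 counts. Its accessibility was 0.135 in cluster 1, 0.185 in cluster 8 and 0.150 in cluster 6, against 0.0613 in cluster 11 (12 counts) and 0.00996 in the ATI-like cluster. The peak was thus more open in both ATII-like clusters and in cluster 6 than in cluster 11, which has the most Lyz1 RNA, and which gene it acts on was not measured.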

How the data were processed

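Nuclei of sorted tdTomato-positive alveolarsphere cells were profiled for RNA and ATAC together. The authors deposited 2 pooled matrices, of raw UMI counts of genes and raw ATAC counts of peaks. Per the submitters' processing notes, the tools were Signac 1.10.0, Seurat 4.3.0 and Cell Ranger 6.0.1 and the builds mm10 and GRCm38; their roles are not stated there. The sources used here do not give the peak caller, the strand setting or the pre-deposit nucleus filter. No label ties a barcode prefix to a sample, so the planned Sox9Cre against Cre test and its replicate block were not run, and no p-value was computed. Tables of multiplexing oligos carry names of samples outside this set and stayed unused.

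Nuclei needed 500 or more UMIs, 300 or more genes and under 20% mitochondrial counts, which removed 25. No doublet caller was run and doublets may be present; as an alternative, the 5% of nuclei with the highest UMI totals were dropped. Levels have exact Poisson intervals, folds exact conditional intervals and shares Clopper-Pearson intervals, at 95%, for counting error only. In lists and ranks a class with fewer than 3 UMIs was set to 3, and a gene was tested from 30 UMIs in all. Thinning drew 3000 UMIs per nucleus. Clustering used 2000 variable genes without the 5 genes, Sftpc and Sox9, 30 principal components, 15 neighbours and Leiden resolution 0.8 (seed 0). A cluster was named when at least 3 and at least 25% of a list's markers were 2-fold higher and detected in 20% or more of its nuclei, and outnumbered the next list more than 2 to 1; this rule was set after the clusters were seen. The median depth by cluster was 6384 to 14474 UMIs.

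The text names the 5 genes, up to 4 genes of each list by level or fold, and the 3 genes most like each member. For those, Pearson's r was computed on log2(level + 0.1) among genes with a level of at least 0.2. Members named beyond this rule, such as C3, Il33, Cfi and the immune markers near 0, were picked with their values in view. The value of 1 list gene is not reported here. The 5 genes and all lists were chosen with earlier results of these data known. For ATAC, gene spans came from RefSeq (GRCm38.p6) and starts and strands from its promoter table. Single peaks were taken within 10000 bp and tested from 50 counts. Peak positions are as the files give them. The fold computation recovered known folds when tested on simulated data. Computation used Python 3.11.15 with pandas 2.3.3, numpy 2.4.6, igraph 0.11.9, leidenalg 0.10.2, scipy 1.17.1, biopython 1.88, scanpy 1.11.5 and matplotlib 3.10.9.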

Additional observations from a re-analysis of the deposited data

How the results depend on the processing

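The 4 higher genes stayed at least 2-fold higher under all 16 alternatives, and leaving out 1 library at a time gave folds of 13.6 to 16.7 for Lyz2, 14.7 to 15.9 for Chil1, 10.8 to 12.3 for Cxcl15 and 9.12 to 11.5 for Hc. Lyz1 was higher in Sftpc-rich nuclei only against other nuclei without airway or immune marker UMIs (3.32-fold). That filter was put on 1 class only and takes out nuclei of the kind that held most Lyz1. Its fold was 0.944 without the airway secretory-like cluster (chosen after seeing the data), 0.0364 without cluster 8 and 0.0685 to 0.384 with 1 library left out. The count of members at least 2-fold lower was 1, and 0 with that filter or without the airway secretory-like cluster. Genes past 2-fold over the whole matrix numbered 513 higher and 2312 lower, 310 and 756 with at least 300 UMIs required, and 911 and 3531 with no filter, because fewer or more genes were tested; leaving out 1 library gave 495 to 520 higher and 1779 to 2261 lower. Leaving Sftpc and the 5 genes out of the totals moved the median log2 fold of all genes to -0.06, against -0.20. With these totals 654 genes were at least 2-fold higher and 2002 lower, so the counts depend on the scaling too. No direction of the 5 genes changed. With each peak scored 0 or 1, 1 gene window in place of 2 was at least 25% more open; 2 to 3 were with 1 library left out. The window also changed which genes passed: Chil1 was 1.17-fold with the gene and 10000 bp, and Hc 1.34-fold with the gene only and 1.36-fold with 10000 bp. At resolution 0.4 (chosen after seeing the data) cluster 8 merged into a larger one that held 86.7% of Lyz2 and 89.0% of Chil1 UMIs, and at 1.2 the top cluster held 67.8% and 64.6%. No paired analysis was possible because the barcodes carry no replicate number that a label ties to a sample.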
